A study of Mus musculus with 15 samples.

Results

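Ribosomal protein genes code for the structural proteins of the cytoplasmic ribosome, and 83 of them were described here in mouse embryos at the 2-cell stage. They were chosen by name only: protein-coding genes of the deposited table whose symbol is Rpl, Rps or Rplp followed by a number, with an optional suffix such as a, x or l. The table holds 53023 genes, of which 13443 had a mean of at least 1 FPKM (fragments scaled to gene length and to the assigned fragments of the library) over 6 libraries and were tested. All 83 ribosomal protein genes were among the genes tested, and 0 had a mean below 1 FPKM. By symbol, 52 of the 83 belong to the large subunit and 31 to the small subunit. The 83 include paralogs of other members and Rpl7l1, a factor of large-subunit assembly. They lie on 19 chromosomes, and 4 of the genes are on the X. The symbol rule does not take some genes with other names that also code for ribosomal proteins, such as Rpsa, Fau and Rack1, and these 3 are given beside the others.

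The study concerned gene expression in early embryos whose nuclear actin filaments were disturbed. Oocytes of ICR mice were fertilised in vitro and the embryos were grown in KSOM medium. Where mRNA was injected, a piezo manipulator was used 2 h after insemination, and all embryos were taken at 32 h. Each library came from the polyadenylated RNA of 1 pool of 5 embryos. The 6 libraries form 3 pairs, A, B and C, numbered by the replicate in their titles as A1, A2, B1, B2, C1 and C2. Different fields of the labels, the title and the entry for injected mRNA, are at odds over what each pair is. For A1 and A2 the title reads Wt while the entry reads Non-injected. For B1 and B2 the title reads R62D, an actin mutant unable to polymerise, while the entry reads actinWT-HA-NLS, wild-type actin bearing an HA tag and a signal for nuclear import. For C1 and C2 the title reads Non-injected control while the entry reads actinR62D-HA-NLS. Both sources put the same 2 libraries into each pair, so each comparison is given by pair with both readings. A further 9 libraries of the series, labelled Exportin 6 with R62D, G15S and a second non-injected set, were not analysed here.

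The libraries held 907210 (C2) to 1555431 (C1) assigned reads. Genes of the ribosomal proteins took between 1.29% (B2) and 1.78% (A2) of them, and the smallest read number of any of these genes in any library was 12.8. All 6 markers of the 2-cell stage on a list of such genes (Zscan4c, Zscan4d, Zfp352, Tdpoz2, Tcstv3 and Usp17lc) were above 0 in every library. Of 12 cumulus cell markers, between 2 and 4 were above 0 in a library, with 8.5 to 29.5 reads in all. Amhr2 (2.75 to 8.03 FPKM) was above 0 in every library, and Fshr, Foxl2 and Inha were at 0 in all 6. Blood cell markers summed to 6.5 to 73 reads. Hba-a1 (4.75 to 42.3 FPKM) and Hba-a2 (4.13 to 38.5 FPKM) were above 0 in every library, and Hbb-bs and Hbb-bt were at 0 throughout. Sperm markers summed to 65 to 176 reads, with Ldhc (28.6 to 46.0 FPKM) and Odf2 (1.53 to 5.64 FPKM) above 0 in every library and Prm1, Tnp2 and Smcp at 0. Mitochondrially encoded RNA took 7.23% (C1) to 13.1% (A2) of the reads. The part of these differences between libraries in the values below was not tested.

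A ribosome is built from RNA and one copy of most ribosomal proteins, so cells usually make these proteins in matched amounts. Many of the mRNAs start with a run of pyrimidines, the terminal oligopyrimidine (TOP) motif, through which the kinase complex mTORC1 and the protein Larp1 adjust their translation and stability together. A growing oocyte stores ribosomes and mRNAs for the embryo, and in the mouse the main wave of transcription from the embryo's own genome starts at the 2-cell stage. The table gives mRNA levels of whole pools, so stored and newly made mRNA are not separated, and a lower level per cell cannot be told apart from fewer contributing cells.

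The start regions of 10 members are shown because their values are described below or because they carry the pyrimidine run beside the start. Each is 60 bases, 30 before and 30 after the RefSeq start in GRCm38.p6, in the direction of transcription. Capitals mark the longest run of a C followed by at least 5 further pyrimidines, the first such run where lengths tie, and a sequence without capitals has no such run in this window.

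Rps6, chr4:86857338-86857397, minus strand: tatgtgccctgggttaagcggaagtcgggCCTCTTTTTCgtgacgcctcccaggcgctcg
Rps27, chr3:90213619-90213678, minus strand: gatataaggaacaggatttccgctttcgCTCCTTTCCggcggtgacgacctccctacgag
Rpl14, chr9:120571487-120571546, plus strand: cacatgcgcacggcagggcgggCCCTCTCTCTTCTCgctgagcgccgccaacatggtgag
Rps26, chr10:128626477-128626536, minus strand: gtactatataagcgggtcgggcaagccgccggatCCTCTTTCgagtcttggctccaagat
Rpl12, chr2:32961682-32961741, plus strand: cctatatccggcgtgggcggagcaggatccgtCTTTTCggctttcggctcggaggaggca
Rps15, chr10:80292401-80292460, plus strand: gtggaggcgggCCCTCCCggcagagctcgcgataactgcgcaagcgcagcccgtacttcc
Rps27l, chr9:66946056-66946115, plus strand: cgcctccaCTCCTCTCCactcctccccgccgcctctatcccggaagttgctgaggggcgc
Rplp0, chr5:115559437-115559496, plus strand: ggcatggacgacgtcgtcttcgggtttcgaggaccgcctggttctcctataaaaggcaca
Rpl10, chrX:74270786-74270845, plus strand: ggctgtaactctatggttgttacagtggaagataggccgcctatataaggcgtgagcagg
Rpl10l, chr12:66284372-66284431, minus strand: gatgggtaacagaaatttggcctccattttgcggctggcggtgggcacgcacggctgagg

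In Rps6 and Rps27 the run lies across the RefSeq start, in Rps26 and Rpl12 it begins 5 and 3 bases into the transcript, and in Rpl14 it begins 8 bases before the start. Of the 83 genes, 63 had an entry among the RefSeq promoters. A C followed by at least 5 pyrimidines, read on the gene's own strand and at any place in the 60 bases, was found in 45 of these 63 (71.4%), against 43.8% of 27025 genes. A longer run, with at least 7 further pyrimidines, was found in 54.0% of the members and 20.6% of all genes. A run whose first base lies within 10 bases of the start was found in 31 of 63 (49.2%) against 19.6% of all genes. In the 300 bases from 250 before to 50 after the start, the letters CCGGAAGT, a binding sequence of ETS family factors, were found on either strand in 17.5% of the members against 4.31% of all genes. GGGCGG, the core of the GC box, was found on either strand in 61.9% against 38.2%, and TATAAA on the gene's strand in 9.52% against 9.77%. In the 60 bases around the start, TATAAA was found in 4 of 63 (6.35%) against 2.44% of all genes. These motifs can overlap one another, the shares are descriptions of the letters in these windows, and no test was made.

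Levels differed widely among these mRNAs, although most of their proteins are needed in like amounts. The mean over the 6 libraries ran from 8.02 FPKM (Rpl12) to 903 FPKM (Rplp0), a 113-fold range, with a median of 74.6 FPKM, against a median of 5.59 FPKM over all genes tested. The order of the members was much the same in every library, with Spearman's rho of 0.957 to 0.982 over the 83 genes for the 15 pairs of libraries, which share gene lengths and sequence. Among protein-coding genes, 4 members were in the top 100 by mean FPKM and 47 in the top 1000.

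**Figure D1:**
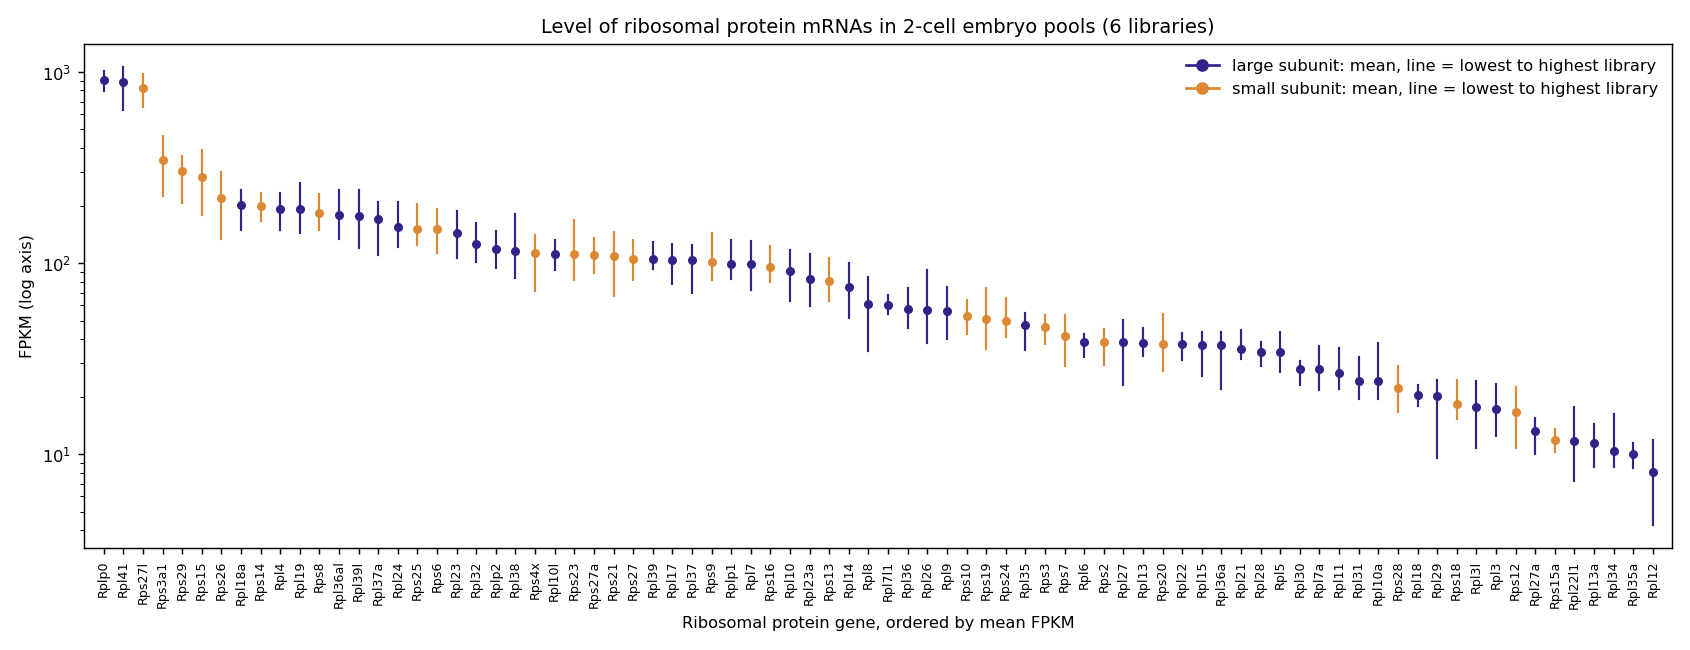
FPKM (log axis) of 80 of the 83 ribosomal protein genes, ordered by mean. Points are means over 6 libraries, lines run from the lowest to the highest library, and colours mark the subunit. Rplp0 and Rpl41 stand at the top, at 903 and 885 FPKM, and Rpl12 at the bottom, at 8.02 FPKM.

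Rplp0, the core of the stalk that recruits elongation factors to the large subunit (mm10 chr5:115559467-115563727), had 860.1 (A1) and 1018 (A2) FPKM in pair A, 798 (B1) and 934 (B2) in pair B, and 939 (C1) and 871 (C2) in pair C. Rpl41, which codes for the shortest ribosomal protein (chr10:128548114-128549305), had 880.0 (A1) and 1063 (A2) FPKM in pair A, 997 (B1) and 635 (B2) in pair B, and 841 (C1) and 894 (C2) in pair C. Neither fell below 635 FPKM in any library.

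Rps27l, a paralog of Rps27 known as a target of p53 (chr9:66946086-66949516), had 779 (A1) and 919 (A2) FPKM in pair A, 978 (B1) and 654 (B2) in pair B, and 779 (C1) and 830.3 (C2) in pair C. Lower in the order came Rps3a1 at 348 FPKM and Rps29 at 303 FPKM on average.

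At the low end stood Rps15a (11.8 FPKM), Rpl22l1 (11.7), Rpl13a (11.4), Rpl34 (10.4), Rpl35a (10.05) and Rpl12 (8.02). Rpl12, which lies at the base of the stalk beside Rplp0, had 4.26 (A1) and 11.9 (A2) FPKM in pair A, 7.08 (B1) and 7.47 (B2) in pair B, and 6.36 (C1) and 11.1 (C2) in pair C. Its lowest and its highest value were those of the 2 libraries of pair A. Going down the order, the ranges over the 6 libraries overlapped in 81 of 82 neighbouring pairs of genes, so the order of neighbours was mostly not resolved.

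The low end also depended on the gene length used for the deposited values. That length covers all annotated exons of a gene (median 1734 bases), while the principal transcript in GENCODE M21 has a median of 835 bases. For Rpl35a the deposited length is 6.81 times that of the principal transcript. Dividing the same reads by the length of the principal transcript put Rpl41 first at 1776 FPKM, before Rps27l (1346) and Rplp0 (1104), and Rps15a last at 14.3. The orders of the 83 by the 2 lengths had a Spearman's rho of 0.887. The range widened to 124-fold.

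Copies elsewhere in the genome limit what single values mean. For 80 of the 83, some 50-base windows of the principal transcript were also found in other annotated genes, including named pseudogene copies. The median share of such windows over all 83 was 51.4%, and 43 genes had over 50%. Rpl39l and Rpl3l were among those with none. Reads were shared between genes as fractions in the table, and Rpl39l was among the few members with whole read numbers in all 6 libraries. The 279 pseudogenes named after ribosomal proteins received 2806 (A1) to 4577 (C1) reads in a library, against 13471 to 22397 for the 83 genes. Across the 83, mean level by the length of the principal transcript and share of such windows had a Spearman's rho of -0.01.

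The small subunit genes were higher than those of the large subunit in every library. The median over small-subunit genes was 86.0, 123, 96.7, 85.8, 96.3 and 122 FPKM in A1, A2, B1, B2, C1 and C2, and over large-subunit genes 38.4, 53.8, 49.7, 47.1, 48.1 and 67.9 FPKM. The highest large-subunit median, that of C2, was below the lowest small-subunit median. On the log2(FPKM + 1) scale the large minus small difference was -1.14, -1.18, -0.95, -0.85, -0.99 and -0.84 in that order of libraries, with a mean of -0.99 ± 0.14 (SD, n = 6). The difference spread by less between libraries than its own size, and its sign was the same in all 6. The same genes and lengths enter every library, so this does not measure the spread between genes. By the length of the principal transcript it was larger, from -1.25 (B1) to -1.52 (C2). The order of the libraries depended on the length, since C2 had the smallest difference as deposited and the largest by transcript length. The 2 groups of genes had similar deposited lengths (medians of 1754.5 and 1726 bases) and similar shares of windows found elsewhere (52.4% and 50.7%). With the tissue-restricted and duplicated paralogs left out, the mean difference was -1.06 ± 0.14. Genes are not replicates of a subunit, so no test was made between the 2 sets.

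Genes of one functional site did not share one level. In the stalk, Rplp0 at 903 FPKM stood far above its partners Rplp2 (118) and Rplp1 (98.99), the acidic proteins that bind it in pairs, and above Rpl12 (8.02). Rpl5 (34.2) and Rpl11 (26.5), which bring the small RNA of the large subunit into the ribosome and can bind Mdm2, were near one another.

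Around the mRNA channel of the small subunit, Rps26 (219) and Rps14 (199) were the highest of 7 genes, Rps9 was at 102, and Rps28 (22.2), at the channel's exit, was the lowest. Around the tunnel through which the new peptide leaves, Rpl4 (191), Rpl19 (191), Rpl39 (104) and Rpl17 (104) led 9 genes, with Rpl31 (24.2) lowest. Among proteins at the tRNA sites, Rps15 (282) was highest, before Rps23 (112), Rpl10 (90.9) and Rpl8 (61.3), and Rpl3 (17.3) lowest. Part of these orders turned with the gene length used. By the length of the principal transcript Rps2 (64.5) was below Rps28 (82.9), Rpl26 (136) and Rpl23a (125) were above Rpl17 (104), Rpl10 (218) was above Rps23 (151), and Rpl11 (85.9) was above Rpl5 (65.5). Rps26, Rps15, Rpl31 and Rpl3 kept their places at the ends of these groups, as did Rplp0 and Rpl12 in the stalk.

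Rps6, the substrate of S6 kinase, was at 149.9 FPKM. Of the genes whose proteins are made as fusions, Fau, with a ubiquitin-like domain, was at 283 and Rps27a, with ubiquitin, at 110.3 FPKM. Rpsa, a small-subunit protein also named as the laminin receptor, was at 25.2 FPKM, and Rack1, a scaffold on the small subunit, at 13.8 FPKM.

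Among the paralogs, Rps27l and Rpl36al had higher mean values than the genes they resemble by both lengths. For Rpl39l, Rpl10l and Rpl3l, known from other tissues, the order of the means depended on the length used. In all, 7 paralogs could be set beside the gene they resemble. No 50-base window of the paralog's principal transcript was found in that gene. Rps27l exceeded Rps27 in all 6 libraries, by 6.82 to 9.59 times as deposited and 4.22 times on average by transcript length. Rps27 itself had 91.5 (A1) and 133 (A2) FPKM in pair A, 119.7 (B1) and 86.2 (B2) in pair B, and 81.3 (C1) and 122 (C2) in pair C. Rps27, however, shares 98.6% of its windows with other genes, led by Rps27rt, so its own level is uncertain, while for Rps27l 22.4% of windows are shared.

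Rpl36al, which codes for nearly the same protein as the X-linked Rpl36a, had 133 (A1) and 241 (A2) FPKM in pair A, 181 (B1) and 146 (B2) in pair B, and 157 (C1) and 210.0 (C2) in pair C. It exceeded Rpl36a 3.35 to 7.13 times, in 6 of 6 libraries, and 3.60 times on average by transcript length. However, Rpl36al shares 63.3% and Rpl36a 85.5% of windows with other genes, so the own level of both is uncertain. Pseudogenes named after Rpl36a received 173 (A1) to 314 (A2) reads in a library, against 56.8 (C1) to 90.9 (B1) for Rpl36a.

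Rpl39l, known for its expression in male germ cells, had 205 (A1) and 241 (A2) FPKM in pair A, 209 (B1) and 119.9 (B2) in pair B, and 135 (C1) and 143 (C2) in pair C. Rpl39, at the exit of the peptide tunnel, had 94.5 (A1) and 109 (A2) FPKM in pair A, 129 (B1) and 107 (B2) in pair B, and 92.7 (C1) and 94.7 (C2) in pair C. The ratio of Rpl39l to Rpl39 was 1.12 to 2.21 as deposited, above 1 in 6 of 6 libraries, but 0.74 on average by transcript length, so which of them is higher depends on the length used. Reads in Rpl39l are not shared with any other gene by the search above.

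Rpl10l, an intronless testis-expressed copy of Rpl10, had 92.4 (A1) and 94.9 (A2) FPKM in pair A, 107 (B1) and 119 (B2) in pair B, and 132 (C1) and 128 (C2) in pair C. Its ratio to Rpl10 was 0.98 to 2.08 as deposited and 0.51 by transcript length, so this order also depends on the length. Rpl3l, known from heart and skeletal muscle, had 24.04 (A1) and 17.7 (A2) FPKM in pair A, 20.9 (B1) and 10.7 (B2) in pair B, and 18.2 (C1) and 14.1 (C2) in pair C, and was above Rpl3 in 3 of 6 libraries. By transcript length its mean ratio to Rpl3 was 0.53. Rpl22l1 was below Rpl22 in all 6, at 0.21 to 0.42 of it, or 0.79 by transcript length, and Rpl7l1, a factor of large-subunit assembly, was at 0.48 to 0.94 of Rpl7, or 0.27 by transcript length. Copies limit these ratios as well. Rpl10 shares 85.4%, Rpl3 85.6% and Rpl7 53.3% of windows with other genes, against 7.60%, 0% and 9.19% for their paralogs. For Rpl22l1 it was the other way, with 65.6% against 5.19% for Rpl22. Rps4l is listed in the table as a transcribed processed pseudogene and is not among the 83.

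**Figure D2:**
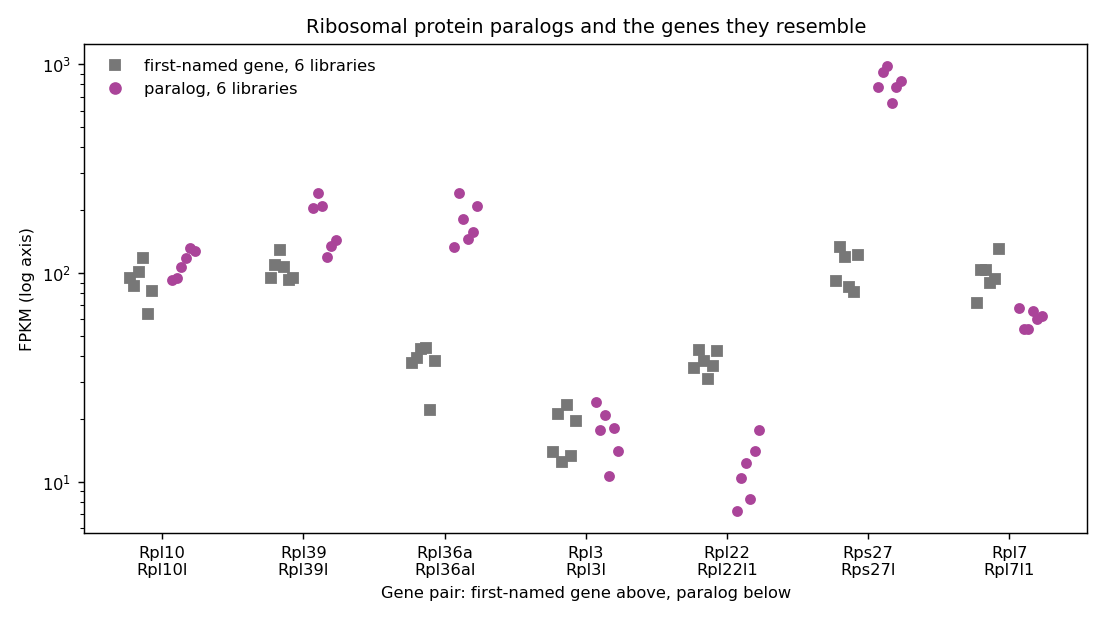
FPKM (log axis) of 7 paralogs and the genes they resemble, with 1 point per library. Rps27l and Rpl36al lie above their partner in all 6 libraries, Rpl22l1 and Rpl7l1 below it, and Rpl3l and Rpl3 mix.

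Between libraries the levels of most ribosomal protein genes varied together, including between the 2 libraries of a pair. Each gene was set against its own mean of log2(FPKM + 1) over the 6 libraries. The median over the 83 was -0.17 in A1, 0.28 in A2, -0.08 in B1, -0.21 in B2, -0.02 in C1 and 0.20 in C2, against values between -0.08 and 0.12 for all genes tested. A2 and C2 were high, and A1 and B2 low. A2 was above A1 for 75 of the 83 (90.4%, against 44.9% of all genes tested) with a median gap of 0.48. C2 was above C1 for 66 (79.5% against 38.7%) with a median gap of 0.20, and B2 was above B1 for 28 (33.7% against 50.0%) with a median of -0.14. The highest library was A2 for 40 genes and C2 for 22, and the lowest was B2 for 33 and A1 for 23.

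The range of the pair means exceeded the largest gap within a pair in 15 of the 83 (18.1%), a share near the 21.7% of all genes tested. A2 and C2 were also the libraries with the smallest summed reads of the 2-cell markers, 896 and 900.1 against 1119.6 to 2612 in the others, and A2 had the highest mitochondrial share and C2 the lowest depth. The part of these in the levels was not tested.

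**Figure D3:**
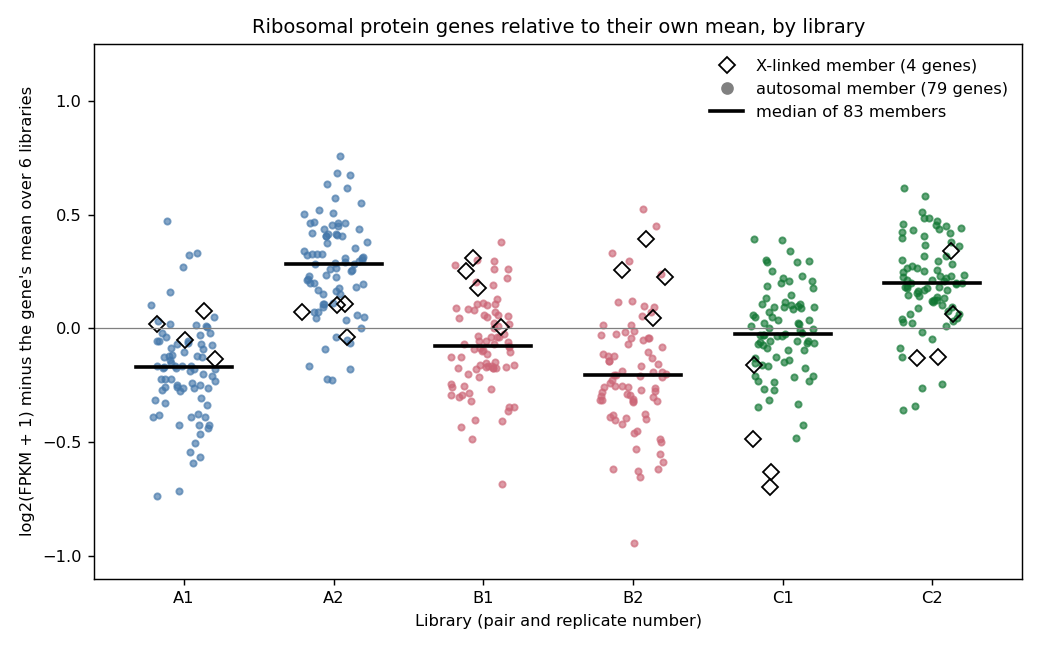
Each of the 83 genes in each library as log2(FPKM + 1) minus its mean over the 6 libraries. Bars are medians of the 83, diamonds the 4 X-linked genes. The medians are highest in A2 (0.28) and C2 (0.20), and each of the 4 X-linked genes has its lowest value in C1.

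Other gene groups differed in whether they showed the same pattern. The 176 tested pseudogenes named after ribosomal proteins, which share sequence and fractional reads with the members, had medians of -0.18, 0.26, -0.07, -0.18, -0.04 and 0.27 in the same order of libraries. The mitochondrial ribosomal protein genes, 73 tested, which build the separate ribosome of mitochondria, had 0.14, -0.17, -0.04, -0.11, 0.07 and 0.16, with A1 above A2.

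Of other mRNAs with a TOP motif, translation and RNA-binding factors for the most part, 17 of 17 were tested, with medians of -0.24, 0.05, -0.09, 0.10, 0.07 and -0.04. Npm1, a nucleolar chaperone and the highest of these, had 373 (A1) and 547 (A2) FPKM in pair A, 423 (B1) and 389 (B2) in pair B, and 359 (C1) and 608 (C2) in pair C. Among 139 other protein-coding genes with a deposited length of at most 1 kb and a mean of at least 50 FPKM, 46.8% were higher in A2 than in A1 and 50.4% higher in C2 than in C1. In pair B they moved in the same direction as the ribosomal protein genes. Of the 139, 29.5% were higher in B2 than in B1, with a median gap of -0.31. For the 83 ribosomal protein genes these values were 33.7% and -0.14.

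**Figure D4:**
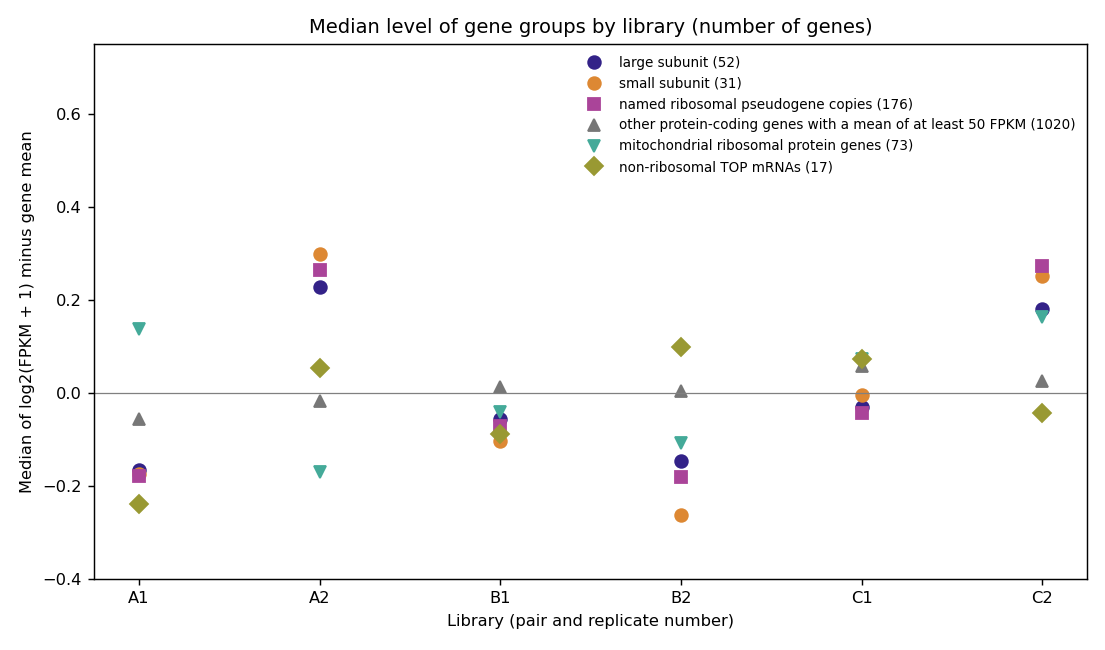
Median over the genes of a group of log2(FPKM + 1) minus the gene's mean, by library, for both subunits and 4 other groups, with the number of genes in brackets. Both subunits and the named pseudogene copies are highest in A2 and C2, and the other groups are not highest in both.

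The 4 X-linked members, Rpl10, Rpl36a, Rpl39 and Rps4x, departed from the rest. Their median was -0.01, 0.09, 0.22, 0.24, -0.56 and -0.03 in A1, A2, B1, B2, C1 and C2. C1 was the lowest library for all 4, where the other 79 had a median of -0.01, and pair B was high, where the others were low. Rps4x, a small-subunit protein, had 107 (A1) and 119 (A2) FPKM in pair A, 111 (B1) and 129.6 (B2) in pair B, and 70.98 (C1) and 140.1 (C2) in pair C, with C1 alone below 100 FPKM. The 373 other X-linked protein-coding genes tested had medians of 0.11, -0.43, 0.17, 0.36, -0.08 and -0.14 and were thus high in pair B as well, but lowest in A2. Reads from the Y chromosome numbered 41.4 (B2) to 411 (C1), and the sex of the embryos in a pool is not given, so its part was not tested.

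By the SD over libraries of a gene's distance from the members' median profile, the 6 genes farthest from it were Rpl8 (0.45), Rpl3l (0.45), Rpl10 (0.43), Rpl29 (0.42), Rpl36a (0.42) and Rpl4 (0.40). The median of this SD was 0.20. Rpl8, which lies near the peptidyl transferase centre, had 34.8 (A1) and 61.2 (A2) FPKM in pair A, 47.7 (B1) and 84.97 (B2) in pair B, and 57.4 (C1) and 81.8 (C2) in pair C. Both B2 and C2 were high and A1 was low, and A2, B2 and C2 were each above the other library of their pair. Rpl4, whose protein reaches into the peptide tunnel, had 156 (A1) and 182 (A2) FPKM in pair A, 199 (B1) and 232 (B2) in pair B, and 231 (C1) and 149 (C2) in pair C, with C2, where most members were high, as its lowest library. Among the closest to the median profile were Rpl13 (0.07), Rpl22 (0.08) and Rpl31 (0.08), all proteins of the large subunit. Rpl13 had 35.1 (A1) and 42.5 (A2) FPKM in pair A, 35.4 (B1) and 32.7 (B2) in pair B, and 36.8 (C1) and 45.6 (C2) in pair C.

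Pair C against pair B is R62D against wild-type actin if the entry for injected mRNA holds, or non-injected against R62D if the titles hold. Most ribosomal protein genes had higher values in pair C, by amounts that did not pass the test. Whether the pools of a pair had different parents is not in the labels, and p reflects only how far these pools differed from each other. The median log2 difference was 0.20, against 0 over all genes tested, and the coefficient was above 0 for 70 of the 83 against 49.9% of all genes. Both libraries of C lay above both of B for 38 of the 83 (45.8%), where 15.5% of all genes did so, and below for 3, where 14.8% did. In limma 0 of the 83 and 0 of the 13443 genes had an adjusted p below 0.05 (Benjamini-Hochberg over all genes tested), the smallest adjusted p of a member being 1 and of any gene 0.167. Without adjustment 220 genes (1.64%) were higher and 298 (2.22%) lower at p below 0.05, and limma-voom on the reads recovered from the FPKM also called 0 genes. The median was 0.31 in the small subunit, with 28 of 31 above 0, and 0.17 in the large, with 42 of 52. Without C2 the median of the 83 was 0.11 and 56 were above 0.

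Rps15, at the decoding site, had 276 (A1) and 326 (A2) FPKM in pair A, 214 (B1) and 178 (B2) in pair B, and 308 (C1) and 389 (C2) in pair C. Both libraries of B were below all of A and C, while A and C overlapped, and the log2 difference of C against B was 0.82 ± 0.28 (SE; limma, unadjusted p = 0.0197, adjusted p = 1). Rps26, which touches the mRNA before the start codon, had 218 (A1) and 299 (A2) FPKM in pair A, 156 (B1) and 134 (B2) in pair B, and 226 (C1) and 284 (C2) in pair C, with a difference of 0.81 ± 0.29 (unadjusted p = 0.0276, adjusted p = 1). These were the 2 members with an unadjusted p below 0.05 in this comparison. In both genes B1 and B2 were the 2 lowest libraries.

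Rps7, which takes part in maturation of the small subunit and can bind Mdm2, had 37.4 (A1) and 42.8 (A2) FPKM in pair A, 35.9 (B1) and 28.7 (B2) in pair B, and 53.5 (C1) and 50.9 (C2) in pair C, a difference of 0.68 ± 0.29. Here both libraries of C were above the other 4. Rpl29, a surface protein of the large subunit, had 24.3 (A1) and 23.7 (A2) FPKM in pair A, 17 (B1) and 9.53 (B2) in pair B, and 23.9 (C1) and 22.4 (C2) in pair C, a difference of 0.81 ± 0.36, and B2 rested on 12.8 reads. Rpl14 had 70.1 (A1) and 100.2 (A2) FPKM in pair A, 51.7 (B1) and 58.3 (B2) in pair B, and 83.7 (C1) and 83.8 (C2) in pair C, a difference of 0.60 ± 0.30, and Rps19, the gene most often mutated in Diamond-Blackfan anaemia, had 43.7 (A1) and 65.3 (A2) FPKM in pair A, 37.98 (B1) and 35.6 (B2) in pair B, and 48.9 (C1) and 73.99 (C2) in pair C, a difference of 0.70 ± 0.35. In both genes all libraries of A and C lay above both of B.

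The 3 members with both libraries of C below both of B were all X-linked. Rpl10, near the tRNA sites and one of the last proteins to join the large subunit, had 94.1 (A1) and 86.9 (A2) FPKM in pair A, 101 (B1) and 118 (B2) in pair B, and 63.5 (C1) and 81.9 (C2) in pair C, a difference of -0.59 ± 0.28. Rpl36a had 36.9 (A1) and 39.1 (A2) FPKM in pair A, 43.4 (B1) and 43.6 (B2) in pair B, and 22.05 (C1) and 38.02 (C2) in pair C, with C1 far below the other 5 libraries and a difference of -0.57 ± 0.34. Rpl39 differed by -0.32 ± 0.27. All 4 X-linked members had a coefficient below 0, with a median of -0.45, beside a median of -0.38 and 283 of 373 below 0 among other X-linked genes, so lower levels in C than in B were shared with the rest of that chromosome. The adjusted p of each was 1 in limma. Rpl10 shares 85.4% and Rpl36a 85.5% of its windows with other genes. Of the named members higher in C, Rpl29 shares 66.8%, Rps7 59.9%, Rpl14 49.3%, Rps19 43.2%, Rps15 39.0% and Rps26 38.3%. Pseudogenes named after Rps19 received 251 (A1) to 465 (C1) reads in a library, against 199 (B2) to 357 (C1) for Rps19.

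**Figure D5:**
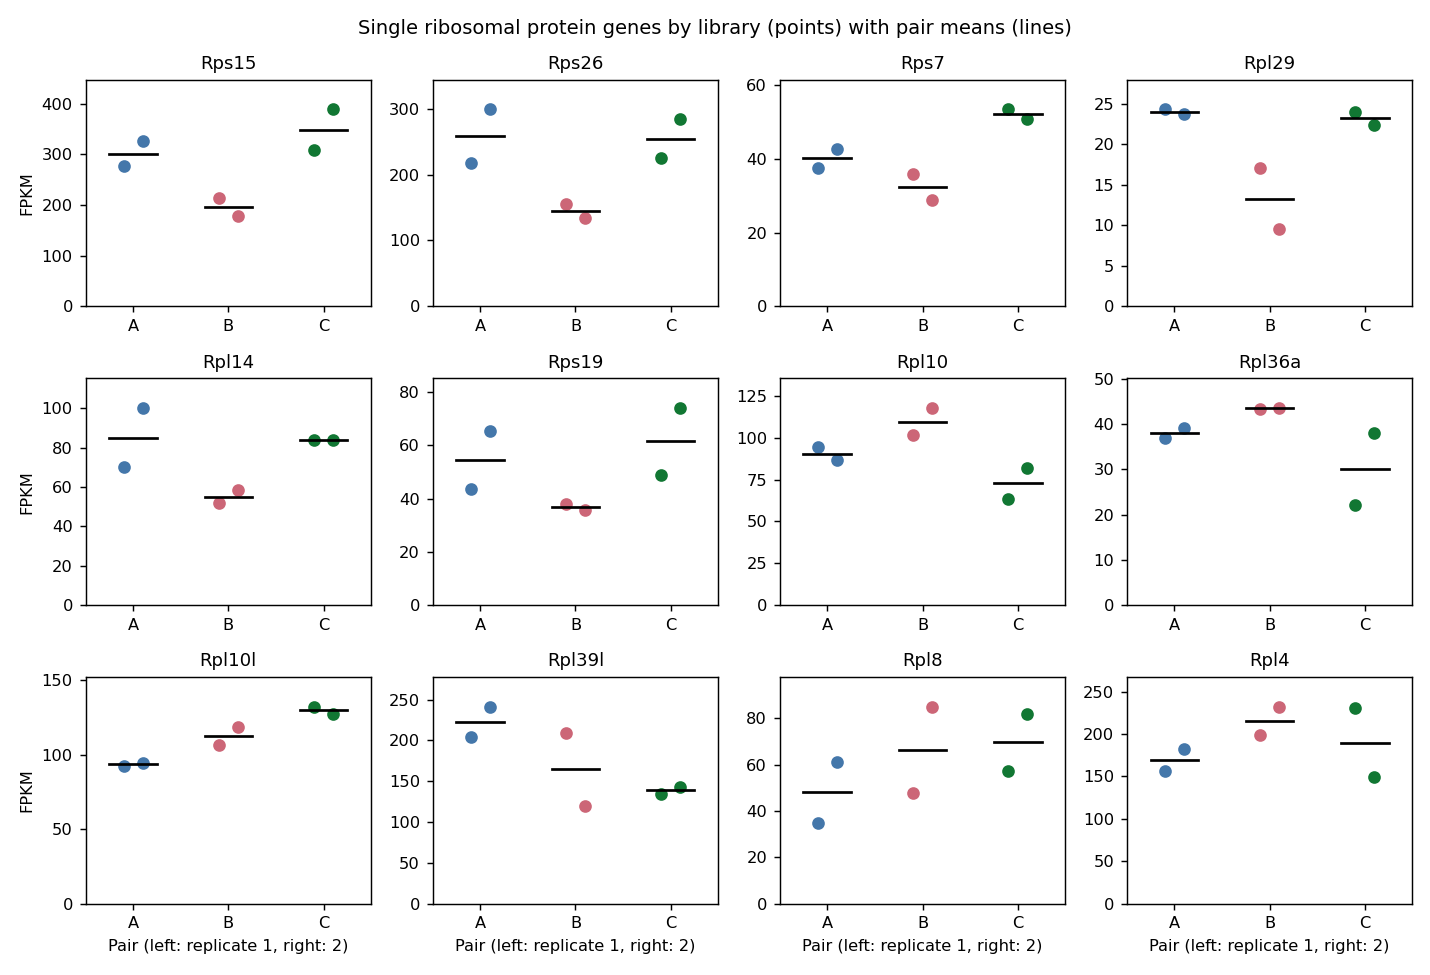
FPKM of 12 ribosomal protein genes, with 1 panel per gene, points for the 2 libraries of each pair and lines for the pair means. Rps15, Rps26, Rpl29 and Rpl14 are lowest in pair B, Rpl10 and Rpl36a lowest in pair C, and in Rpl8 the 2 libraries of each pair lie apart.

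Pair C against pair A is R62D against non-injected by the entry for injected mRNA, or non-injected against wild-type actin by title. The ribosomal protein genes were at like levels in both pairs, with a median log2 difference of 0.03 beside 0.06 over all genes. The coefficient was above 0 for 48 of the 83 against 56.5% of all genes. Both libraries of C lay above both of A for 9 members, where 16.5% of all genes did so, and below for 4, where 10.4% did. In limma 0 of the 83 and 0 of 13443 genes passed, the smallest adjusted p being 1 for members and 0.344 for any gene. At an unadjusted p below 0.05, 225 genes (1.67%) were higher and 180 (1.34%) lower, 0 of them ribosomal protein genes, and limma-voom called 0. The result turned on single libraries. Without A1 the median was -0.19 with 18 above 0, and without A2 it was 0.26 with 69 above 0. Scaling each library to its median gave -0.02, with 37 above 0.

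Rpl22l1 had the highest coefficient of the 83, with 7.25 (A1) and 10.5 (A2) FPKM in pair A, 12.3 (B1) and 8.31 (B2) in pair B, and 13.98 (C1) and 17.7 (C2) in pair C and a difference of 0.78 ± 0.37 (SE; limma, adjusted p = 1). Both libraries of C were above the other 4. Rpl10l, described above, differed by 0.47 ± 0.26, and its 3 pairs followed one another without overlap, A lowest and C highest. Rps21, a small-subunit protein, had 75.3 (A1) and 119.8 (A2) FPKM in pair A, 109 (B1) and 67.5 (B2) in pair B, and 132 (C1) and 146 (C2) in pair C, a difference of 0.54 ± 0.36. Again both libraries of C were the highest 2. Rpl17 (0.40 ± 0.30), Rps7 (0.37 ± 0.29) and Rps28 (0.39 ± 0.30) completed the 6 genes of lowest p with C above A.

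Rpl39l lay on the other side, with -0.67 ± 0.33: A1 and A2 were above both libraries of C, and B1 was near A while B2 was the lowest of all. Rpl10 differed by -0.32 ± 0.28 and Rpl21, a large-subunit protein, by -0.25 ± 0.29, and the adjusted p of all was 1.

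Pair B against pair A is wild-type actin against non-injected by the entry for injected mRNA, or R62D against wild-type actin by title. It shares pair A with the second comparison and pair B with the first, so the 3 are not independent. The ribosomal protein genes were mostly at a lower level in pair B. The median log2 difference was -0.17, against 0.07 over all genes, and the coefficient was below 0 for 64 of the 83 against 44.5% of all genes, and above 0 for 19 against 55.1%. Both libraries of B lay below both of A for 18 members (21.7%), where 12.8% of all genes did so, and above for 4, where 18.8% did. By limma 0 of the 83 and 0 of 13443 genes passed, with a smallest adjusted p of 0.991 for members and 0.334 for any gene. At an unadjusted p below 0.05, 373 genes (2.77%) were higher and 241 (1.79%) lower, and limma-voom called 0. In the small subunit 29 of 31 had a coefficient below 0 (median -0.23), and in the large 35 of 52 (median -0.14). Without A2 the median turned to 0.038, with 48 of the 83 above 0, and without A1 it was -0.43 with 12 above 0.

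The 2 members lower at an unadjusted p below 0.05 were Rps26, with -0.82 ± 0.29 (SE; limma, unadjusted p = 0.0258, adjusted p = 0.991), and Rpl29, with -0.86 ± 0.36 (unadjusted p = 0.0468, adjusted p = 0.991). Their values are given above, and in both genes both libraries of A and of C were above both of B. Rps15 differed by -0.62 ± 0.28 and Rpl14 by -0.60 ± 0.30. Rpl38, a large-subunit protein, had 107 (A1) and 180.4 (A2) FPKM in pair A, 93.1 (B1) and 83.4 (B2) in pair B, and 105 (C1) and 126 (C2) in pair C, a difference of -0.65 ± 0.33, and A2 was far above the other 5 libraries.

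Of the 19 members with a coefficient above 0, 4 had both libraries of B above both of A, namely Rpl4 (0.35 ± 0.31), Rpl10l (0.26 ± 0.26), Rpl10 (0.27 ± 0.28) and Rpl36a (0.19 ± 0.34). Rpl8 had a larger coefficient, 0.46 ± 0.42, with overlapping pairs. Rpl10 and Rpl36a are X-linked, and of the other X-linked genes 293 of 373 were above 0 in this comparison.

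Genes that control or share the fate of these mRNAs were read beside them. The 6 hosts of small nucleolar RNAs on the list are noncoding TOP genes whose introns hold guides for ribosomal RNA modification. Their coefficient was above 0 in 6 of 6 for C against B (median 0.41), against 49.9% of all genes. It was below 0 in 6 of 6 for B against A (median -0.64), against 44.5% of all genes. Both comparisons use pair B. For C against A the 6 hosts lay on both sides of 0, from -0.59 (Snhg8) to 0.41 (Snhg5). Snhg5, the highest of them, had 158 (A1) and 234 (A2) FPKM in pair A, 125 (B1) and 112 (B2) in pair B, and 217 (C1) and 302 (C2) in pair C, a difference of 1.11 ± 0.32 for C against B (SE; limma, unadjusted p = 0.00978), which did not pass after adjustment. Gas5, whose mRNA-like transcript is a classic TOP RNA, had 53.8 (A1) and 69.9 (A2) FPKM in pair A, 54.5 (B1) and 43.01 (B2) in pair B, and 55.8 (C1) and 74.9 (C2) in pair C, a difference of 0.41 ± 0.32.

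The other TOP mRNAs had 9 of 17 above 0 for C against B, with a median of 0.01, and 10 of 17 above 0 for B against A, with a median of 0.05. Hnrnpa1, which packages nuclear RNA, differed by 0.16 ± 0.28 in the first of these, and Eif3h, a subunit of an initiation factor, by -0.07 ± 0.38.

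Of 12 genes of mTORC1 and its targets, 8 were tested and the other 4 had means below 1 FPKM. Rheb, the small GTPase that activates mTORC1, had 24.2 (A1) and 33.02 (A2) FPKM in pair A, 19.05 (B1) and 20.7 (B2) in pair B, and 29.9 (C1) and 42.4 (C2) in pair C, a difference of 0.81 ± 0.33 for C against B (SE; limma, unadjusted p = 0.0445, adjusted p = 1). Eif4ebp2, a translation repressor with a mean of 1.43 FPKM, lay on the other side with -1.26 ± 0.53 (unadjusted p = 0.0489, adjusted p = 1). Of the 8 genes, 3 were above 0 and 5 below 0 in this comparison, with a median of -0.14. Larp1 stood at 2.49 FPKM on average, Eif4ebp1, a repressor of the same family as Eif4ebp2, at 14.3 and Rps6kb1, an S6 kinase, at 7.81. Of 13 factors that carry ribosomal proteins or assemble subunits, 7 were above 0 for C against B with a median of 0.01. Rpf2, which loads Rpl5 and Rpl11 onto the large subunit precursor, was the highest at 266 FPKM, followed by Ltv1 (109.9), Eif6 (96.9) and Tsr1 (19.9). None of these genes passed the adjusted test in any comparison.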

How the data were processed

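Polyadenylated RNA of 6 pools of 2-cell embryos was reverse transcribed with spike-in RNA, amplified by PCR with 13 cycles and sequenced as paired reads of 50 and 25 bases, per the labels' protocols. The authors deposited FPKM values per gene. The submitters' processing notes name mm10, Trimmomatic, Trim Galore, cutadapt, STAR and featureCounts. Annotation, strand handling and program versions are not stated in those sources. The table has 0 spike-in rows, so levels are relative to each library's total.

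Reads were recovered from FPKM, gene length and the value of 1 read. Between 99.9% and 99.98% of values were multiples of 0.01 read (tolerance 0.0002) and 55.6% to 57.9% were whole reads (tolerance 0.001), so copies share reads as fractions. Read numbers cover counting error only, since PCR copies carried no molecular identifiers.

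Values were taken as log2(FPKM + 1), which understates the change of low genes. Genes reaching 1 FPKM on average were fitted with limma 3.58.1 in R 4.3.3, with 1 mean per pair, a variance trend and two-sided p adjusted over all 13443 genes. The method was tested on simulated data. Members, gene lists and naming rules were chosen with earlier results of these data known. Named were the 6 highest and 6 lowest genes, the 6 of lowest p per direction and comparison among non-overlapping pairs, the 6 farthest from and 4 closest to the median profile, paralogs, up to 4 genes per role beyond these and up to 4 per companion list. Some genes these rules name are not reported here. Gene models came from GENCODE M21 and promoters from RefSeq (GRCm38.p6). Alternatives were another pseudocount, other filters and scalings, other fits and leaving out libraries.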

Additional observations from a re-analysis of the deposited data

How the results depend on the processing

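No setting called a ribosomal protein gene, and the differences of the members named in a comparison kept their direction and stayed on the same side of the threshold in all 464 alternative values. They were named among genes whose pairs do not overlap, which fixes their direction when a library is left out, so this is no sign of stability. A pseudocount of 0.1 gave 1 called gene for C against B, which is no ribosomal protein gene. The other settings gave 0. For C against A, leaving out 1 library gave medians of the members from -0.19 to 0.26 and 18 to 69 coefficients above 0. For B against A it gave medians from -0.43 to 0.038 and 12 to 48 above 0. Leaving out A2 and C2 together, chosen after seeing the data, gave the same 48 as leaving out A2 alone. That is so by construction, since no library of pair C enters this difference. For C against B the medians stayed between 0.11 and 0.34. The cause was not tested. With the replicate number as a block, 0 genes were called in any comparison. Its medians of 0.20, 0.03 and -0.17 equal those without it by construction, since each pair holds both numbers, and say nothing about pairing. Deviations of libraries with the same number correlated at 0.10 (A with B), 0.20 (A with C) and 0.005 (B with C) over genes, so the numbers were not taken to pair them. The pseudocount and leaving out paralogs kept the mean large minus small subunit difference between -0.99 and -1.06. The filter at 5 FPKM removed no member, so it could not change this difference. By the length of the principal transcript the difference in single libraries was larger, from -1.25 (B1) to -1.52 (C2). With 2 libraries per pair, moderate differences could not be resolved.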
